A study of Homo sapiens with 20 samples.

Results

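The 8 genes described here, SLC38A1, SLC38A2, SLC1A5, SLC1A4, SLC7A5, SLC3A2, SLC7A1 and SLC7A2, encode the main carriers that bring neutral and cationic amino acids across the plasma membrane. They were picked by name out of the 58676 genes in the count table, with earlier results of these data known. Among those results, SLC38A2 was lower with PDGF-BB than with eNAMPT. That difference is given as a description and is not used as evidence. The series holds 20 bulk RNA sequencing libraries of 1 immortalized human pericyte line from Celther, of wild-type genotype. Cells were grown in DMEM with 10% fetal bovine serum, the same medium in every group, and received both recombinant factors (eNAMPT at 500 ng/mL and PDGF-BB at 20 ng/mL), PDGF-BB at 20 ng/mL, eNAMPT at 500 ng/mL, or neither as the control. Treatment lasted 4 h in the groups that received a factor, and no time is given for the control. Each of the 4 groups has 5 libraries, called biological replicates in the labels. All libraries come from 1 cell line, so p-values measure the spread between its cultures. eNAMPT is NAMPT, an enzyme of NAD salvage, as found outside cells, and PDGF-BB is a growth factor that activates the pericyte receptor PDGFRB. The study asked how eNAMPT acts on pericytes.

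Amino acid carriers work as a network. Sodium-coupled loaders of system A, SNAT1 (SLC38A1) and SNAT2 (SLC38A2), accumulate small neutral amino acids such as glutamine and alanine. Exchangers then trade these for others: ASCT2 (SLC1A5) and ASCT1 (SLC1A4) swap small neutral amino acids, and LAT1 (SLC7A5), held at the membrane by its heavy chain 4F2hc (SLC3A2), exchanges glutamine for leucine and other large neutral amino acids that feed mTORC1 signalling. CAT1 (SLC7A1) and CAT2 (SLC7A2) carry arginine and lysine. SNAT2 is known for its regulation: its transcript rises when cells lack amino acids or are exposed to hyperosmotic medium, through the kinase GCN2 and the transcription factor ATF4 in the case of starvation.

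Libraries held 2894878 to 4011066 gene counts, with 8.27% to 9.71% of them from mitochondrial genes. The treatments were visible in their known targets. EGR1, an immediate early gene, averaged 249.9 CPM ± 27.1 with both factors, 207 ± 30.2 with PDGF-BB, 91.8 ± 13.1 with eNAMPT and 67.0 ± 5.82 in control (SD, n = 5 each; CPM is counts scaled to 1e+06 per library, after TMM). CXCL1, a chemokine driven by NF-kB, was higher by 1.98 (log2) with eNAMPT than in control (adjusted p 4.3e-12 by edgeR's quasi-likelihood test). Of 10 pericyte markers 9 averaged at least 1 CPM, led by PDGFRB at 130.1 CPM. Desmin (DES) was near absent at 0.561 CPM. All 6 fibroblast markers were present, with COL1A1 at 3299 CPM. Of 7 leukocyte markers 2 averaged at least 1 CPM, CD14 at 17.8 and CD68 at 3.85 CPM, while PTPRC stood at 0.0729 CPM and LYZ had no count. Of 7 endothelial markers 3 did, TIE1 at 3.59, TEK at 2.52 and PECAM1 at 1.73 CPM, with CDH5 at 0.0977 CPM. Of 6 epithelial markers 3 did, the keratins KRT18 at 178 CPM, KRT8 at 10.4 and KRT19 at 1.37, with CDH1 at 0.0930 CPM. None of 5 neural and glial markers did.

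The promoter windows of the SLC38 pair are shown because these neighbouring genes on chromosome 12 encode the same transport activity and their values parted in the data below. Each window is the reference sequence of RefSeq (GRCh38.p14), from 250 bases before to 50 bases after an annotated start, written 5′ to 3′ on the minus strand, on which both genes lie. SLC38A2 has 1 listed start, at chr12:46372724-46373023. SLC38A1 has 2, here called a (chr12:46266467-46266766) and b (chr12:46267938-46268237). Capitals mark motif matches on either strand.
SLC38A2: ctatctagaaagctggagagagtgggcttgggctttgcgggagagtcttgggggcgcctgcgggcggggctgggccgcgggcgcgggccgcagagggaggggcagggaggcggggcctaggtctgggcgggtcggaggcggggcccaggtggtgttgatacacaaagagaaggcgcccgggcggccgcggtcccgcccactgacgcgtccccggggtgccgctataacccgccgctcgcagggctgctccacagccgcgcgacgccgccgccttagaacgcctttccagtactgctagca
SLC38A1 a: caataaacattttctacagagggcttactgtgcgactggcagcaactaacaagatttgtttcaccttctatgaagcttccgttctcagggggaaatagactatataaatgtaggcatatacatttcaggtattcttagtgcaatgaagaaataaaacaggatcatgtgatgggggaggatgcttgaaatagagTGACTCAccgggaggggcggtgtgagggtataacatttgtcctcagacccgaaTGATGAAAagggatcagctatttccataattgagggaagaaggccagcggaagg
SLC38A1 b: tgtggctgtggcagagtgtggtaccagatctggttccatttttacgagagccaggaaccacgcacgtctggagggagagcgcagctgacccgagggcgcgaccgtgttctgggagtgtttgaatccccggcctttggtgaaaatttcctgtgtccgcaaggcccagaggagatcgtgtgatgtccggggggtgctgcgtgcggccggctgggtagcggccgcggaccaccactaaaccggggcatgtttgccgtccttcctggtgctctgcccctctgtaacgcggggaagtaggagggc
The motifs searched were the C/EBP-ATF composite TGATGNAA, which ATF4 dimers are known to bind, the cyclic AMP response element TGACGTCA, the AP-1 site TGANTCA, the E-box CACGTG and the FOXO site GTAAACA, each on both strands; none of the marked matches overlap. Of 35116 listed promoter windows, 3.62% hold the composite, 1.85% the cyclic AMP element, 7.71% the AP-1 site, 7.26% the E-box and 3.42% the FOXO site. The SLC38A2 window is 72% G or C, against a median of 58.7% over all windows, and held none of these letters. Window a of SLC38A1 held an AP-1 match at base -57 and a composite match at -4, counted from the start; window b held none. The search covered 13 windows of 7 of the 8 genes. No window of the CAT2 gene was searched, so nothing is said of its promoter. A composite match occurred in 1 window each of SLC38A1, SLC7A1 (starting at base 8), SLC3A2 (38), SLC1A5 (-97) and SLC1A4 (-7). These matches describe the letters and show no binding. Bases outside these windows, in introns or further upstream, were not searched. A window without a match therefore does not show that SLC38A2 or another gene lacks the motif.

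SLC38A2 (ENSG00000134294, chromosome 12, 46358189 to 46372867, minus strand, GENCODE 29 on GRCh38) was the member that changed, and it was lower in every library that received PDGF-BB than in every library that did not. In replicates 1 to 5 it stood at 183, 216, 226, 203 and 176 CPM with both factors and at 179, 221, 215, 202 and 179 CPM with PDGF-BB. It stood at 264, 274, 309, 283 and 309 CPM with eNAMPT and at 299, 277, 273, 276 and 278 CPM in control. The 10 libraries that received PDGF-BB all lay between 176 and 226 CPM, below the 10 that did not, which lay between 264 and 309 CPM. Every library lower with PDGF-BB was a pattern of 7 of the 12111 genes tested, or 0.0578%; 10 of these 20 libraries are those whose difference was known when SLC38A2 was chosen.

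Both factors together against control is the comparison that shares no library with that known difference. SLC38A2 averaged 201 CPM ± 21.3 with both factors and 281 CPM ± 10.1 in control (SD, n = 5 each), a fall to 71.5% of control. The log2 fold change was -0.48 (SE 0.0780, 95% interval -0.64 to -0.33, adjusted p 5.21e-05, edgeR quasi-likelihood over all 12111 tested genes). SLC38A2 was the 1 of 7 tested members called, where 1.98% of all tested genes were called and 0.347% were called lower. It was also the member whose groups did not overlap, as 2.93% of tested genes did not. Among the 42 genes that fell in this comparison, SLC38A2 had the 31st largest fall. Summed levels of 6 epithelial markers, nearly all KRT18, were 202 to 257 CPM with both factors and 156 to 198 CPM in control, with EPCAM at 0.531 CPM over all libraries; their part in the result was not tested. In bulk RNA, fewer cells of a kind and less transcript per cell cannot be told apart.

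With PDGF-BB alone SLC38A2 averaged 199 CPM ± 19.3, against the same control libraries, or 70.9% of control. On the log2 scale the difference was -0.50 (SE 0.0779, interval -0.65 to -0.34). It was the 1 of 7 tested members called, where 1.21% of tested genes were called and 0.165% were called lower, and it ranked 13th among the 20 called lower. With PDGF-BB added to eNAMPT, 201 CPM with both factors stood against 288 CPM ± 20.4 with eNAMPT. That difference was -0.52 on the log2 scale (SE 0.0779), where 1.53% of tested genes were called. The PDGF-BB and the eNAMPT libraries were both used in choosing SLC38A2, so its values in these comparisons are a description and no test, and they also share libraries with the comparison of both factors with control. Between PDGF-BB and eNAMPT, the contrast that chose the gene, the log2 fold change was -0.53 and 1.05% of tested genes were called. In the authors' deposited table, where fold changes run control over treated, SLC38A2 was at 0.44 (SE 0.0698, adjusted p 9.39e-08) for control over both factors. The same authors' deposited table gave 0.45 (SE 0.0697) for control over PDGF-BB. The deposited fold changes appear drawn towards 0, as SLC7A2 was at -0.03 for control over both factors on 1 against 5 counts. Their sizes and SEs are therefore not on the same measure as those of edgeR.

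With eNAMPT SLC38A2 stood near its level without it. Its fold change was 0.04 (log2) with eNAMPT over control (interval -0.12 to 0.19), and 0.01 with both factors over PDGF-BB (-0.15 to 0.17). No member was called with eNAMPT, where 0.0743% of tested genes were called, or with both factors over PDGF-BB, where 0.0578% were; DESeq2 and limma-voom called none either. In both comparisons 0 members had an unadjusted p under 0.05, as 3.61% of tested genes had with eNAMPT over control and 3.4% with both factors over PDGF-BB. The eNAMPT effect with PDGF-BB minus that without it was -0.02 (-0.25 to 0.20) for SLC38A2. For that difference of effects 0 of all tested genes were called by edgeR, as by DESeq2 and limma-voom, and 3.35% had an unadjusted p under 0.05.

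The calls of SLC38A2 depend on how libraries are scaled. With ERCC spike-in counts (35490 to 63968 per library) in place of TMM, no member was called in any comparison. The log2 fold change of SLC38A2 was then -0.64 with both factors over control (SE 0.191, adjusted p 0.142, edgeR quasi-likelihood). With PDGF-BB over control it was -0.47 (SE 0.191). The SEs with TMM were smaller, at 0.0780 and 0.0779. Spike-in scaling moved the median of all tested genes to -0.149 with both factors over control and to 0.0116 with PDGF-BB over control. Leaving out each of the 20 libraries in turn kept the adjusted p of SLC38A2 between 3.39e-05 and 0.000594 for both factors over control.

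**Figure D1:**
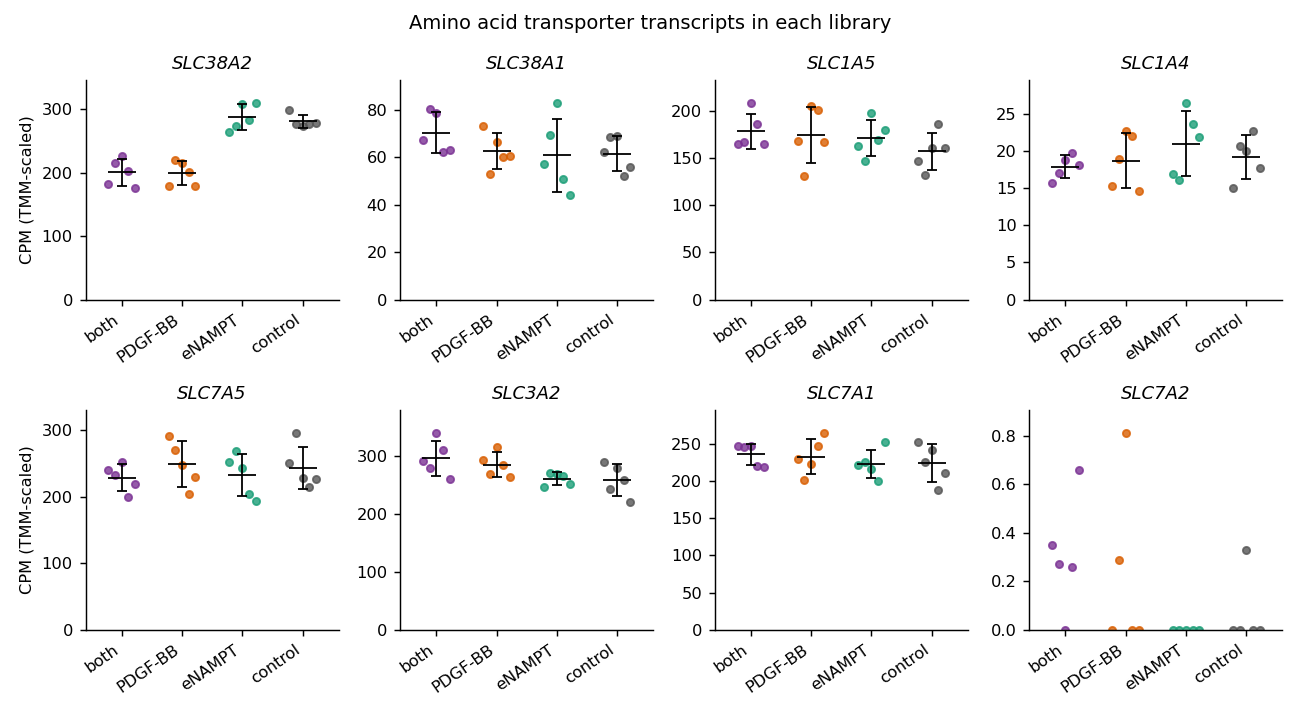
CPM (TMM-scaled, vertical axes, each from 0) of the 8 transporters in all 20 libraries, by group, with both factors, PDGF-BB, eNAMPT and control from left to right. Points are libraries in replicate order and bars are mean ± SD (n = 5; not drawn for SLC7A2). SLC38A2 lay at 176 to 226 CPM in the libraries with PDGF-BB and at 264 to 309 CPM in those without, while the groups of each other gene overlapped.

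SLC38A1 (ENSG00000111371, chromosome 12, 46183063 to 46270017, minus strand), the other system A carrier, did not follow SLC38A2. Its libraries stood at 67.4, 80.4, 78.7, 62.1 and 63.1 CPM with both factors and at 73.2, 53.1, 66.4, 60.2 and 60.5 CPM with PDGF-BB. They stood at 57.1, 69.4, 82.9, 50.7 and 44.1 CPM with eNAMPT and at 62.4, 68.8, 68.9, 52.1 and 55.95 CPM in control. All 4 groups overlapped, and the eNAMPT group was the most spread. The log2 fold change was 0.19 with both factors over control (interval -0.06 to 0.45, adjusted p 0.633) and 0.03 with PDGF-BB over control (-0.23 to 0.29, adjusted p 0.977). The lower bounds lie above the fitted fall of SLC38A2.

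The ratio of SLC38A2 to SLC38A1 raw counts within a library does not depend on scaling. It averaged 2.86 ± 0.239 with both factors, 3.23 ± 0.622 with PDGF-BB, 4.98 ± 1.35 with eNAMPT and 4.61 ± 0.591 in control (SD, n = 5 each). With both factors it lay between 2.68 and 3.27, below the control range of 3.97 to 5.31. With PDGF-BB alone it reached 4.15 and overlapped control. SLC38A2 took 16.3% ± 0.931 of the counts of the 8 members with both factors, 16.3% ± 1.74 with PDGF-BB, 22.9% ± 1.33 with eNAMPT and 22.6% ± 0.900 in control. The 8 members summed to 1228 CPM ± 90.4 with both factors, 1222 ± 53.2 with PDGF-BB, 1257 ± 56.2 with eNAMPT and 1244 ± 59.3 in control, differences smaller than the spread.

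**Figure D2:**
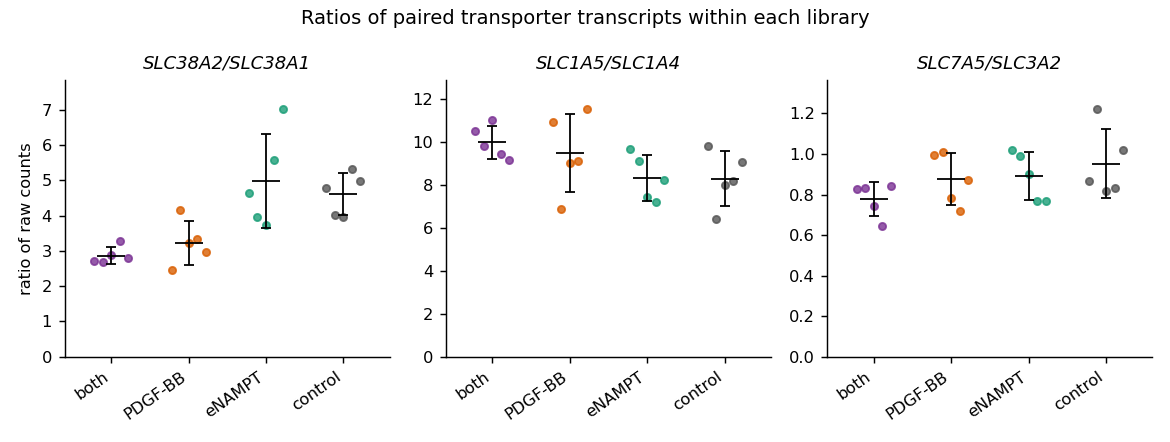
Ratios of raw counts (no unit, vertical axes from 0) of SLC38A2 to SLC38A1, SLC1A5 to SLC1A4 and SLC7A5 to SLC3A2 in all 20 libraries, with both factors, PDGF-BB, eNAMPT and control from left to right. Points are libraries and bars are mean ± SD (n = 5); the first ratio averaged 2.86 with both factors and 4.61 in control, and the groups of the other ratios overlapped.

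The exchangers of small neutral amino acids were not called in any comparison. SLC1A5 (ASCT2, ENSG00000105281, chromosome 19, 46774883 to 46788594, minus strand) stood at 165 to 208 CPM (median 167) with both factors, 130.4 to 205 (median 168) with PDGF-BB, 147 to 197 (median 169) with eNAMPT and 132 to 185 (median 160.2) in control. Its groups overlapped throughout, and its log2 fold change was 0.18 with both factors over control (interval -0.02 to 0.38, adjusted p 0.540). SLC1A4 (ASCT1, ENSG00000115902, chromosome 2, 64988477 to 65023865, plus strand) averaged 17.9 CPM ± 1.55 with both factors, 18.7 ± 3.72 with PDGF-BB, 21.0 ± 4.40 with eNAMPT and 19.2 ± 2.96 in control. Its log2 fold change with both factors over control was -0.11, with a wide interval of -0.46 to 0.25 that nearly reaches the fall of SLC38A2.

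Neither gene of the LAT1 heterodimer was called in any comparison by the model of group means. SLC3A2 (4F2hc, ENSG00000168003, chromosome 11, 62856102 to 62888875, plus strand) stood at 291, 279.8, 339, 310.4 and 260.3 CPM with both factors and at 293, 268, 316, 284 and 264 CPM with PDGF-BB. It stood at 246, 270.5, 269.8, 265 and 253 CPM with eNAMPT and at 290.4, 243, 280.1, 258 and 221 CPM in control. The highest library was one with both factors and the lowest a control library, but all groups overlapped. The log2 fold change was 0.20 with both factors over control (interval 0.04 to 0.35, unadjusted p 0.0158, adjusted p 0.277 by edgeR quasi-likelihood) and 0.14 with PDGF-BB over control (adjusted p 0.590). With spike-in scaling the value for both factors over control was 0.04. With replicate number as a block it was 0.20 (SE 0.0577, adjusted p 0.0263, edgeR quasi-likelihood), and SLC3A2 was called. That block raised the genes called in this comparison to 510, against 240 without it.

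SLC7A5 (LAT1, ENSG00000103257, chromosome 16, 87830023 to 87869488, minus strand) averaged 229 CPM ± 20.1 with both factors, 248.8 ± 34.3 with PDGF-BB, 232 ± 31.7 with eNAMPT and 243 ± 31.8 in control. The log2 fold change was -0.09 with both factors over control (interval -0.28 to 0.10) and 0.03 with PDGF-BB over control (-0.16 to 0.22), so a fall as large as that of SLC38A2 lies outside both. Its pseudogene copies SLC7A5P1 and SLC7A5P2 had 0 counts in every library, and reads shared with them may be missing from SLC7A5. The ratio of SLC7A5 to SLC3A2 counts averaged 0.778 ± 0.0839 with both factors, 0.875 ± 0.128 with PDGF-BB, 0.891 ± 0.120 with eNAMPT and 0.952 ± 0.170 in control, with overlapping ranges.

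Of the cationic carriers, SLC7A1 (CAT1, ENSG00000139514, chromosome 13, 29509410 to 29595688, minus strand) was well expressed and level. It stood at 219 to 247 CPM with both factors, 201 to 264 with PDGF-BB, 200.2 to 252 with eNAMPT and 188 to 252 in control. The log2 fold change was 0.07 with both factors over control (interval -0.09 to 0.24) and 0.06 with PDGF-BB over control (-0.11 to 0.22). SLC7A2 (CAT2, ENSG00000003989, chromosome 8, 17497088 to 17570573, plus strand) was near absent and did not pass the filter on low counts. It had 5 counts with both factors, 4 with PDGF-BB, 0 with eNAMPT and 1 in control, with at most 3 in a library. A count of 0 in the eNAMPT libraries allows a level of up to 0.183 CPM (3 counts of 16352935, counting error only). SLC7A2 averaged 0.307 CPM ± 0.236 with both factors and 0.219 ± 0.353 with PDGF-BB, and 0.0657 ± 0.147 in control, on 10 counts in all; differences between the groups were not tested.

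**Figure D3:**
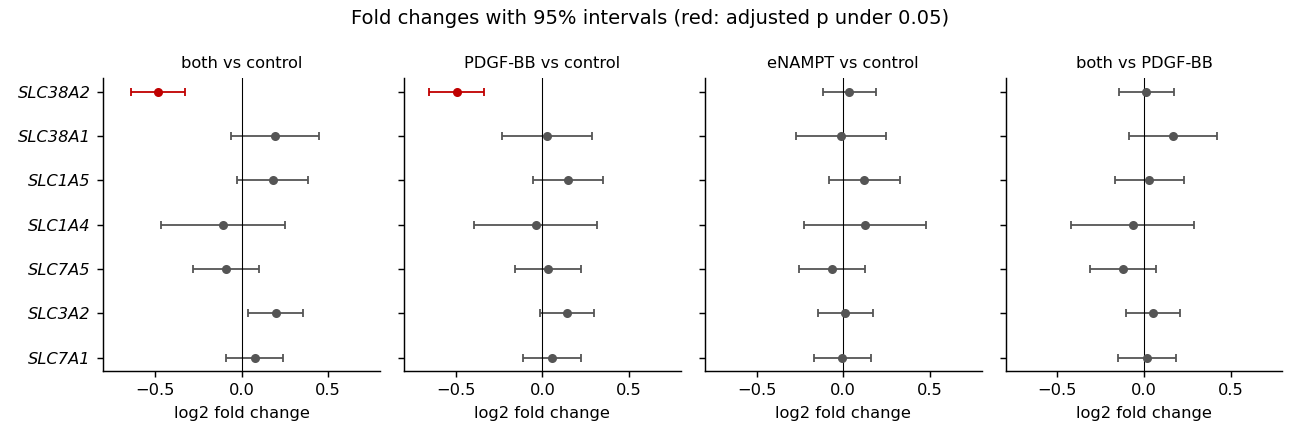
Log2 fold changes (horizontal axes) of the 7 tested transporters in 4 comparisons, with 95% intervals from the edgeR quasi-likelihood fit; red marks an adjusted p under 0.05. SLC38A2 is red at -0.48 with both factors over control and at -0.50 with PDGF-BB over control, and at 0.04 with eNAMPT over control and 0.01 with both factors over PDGF-BB it is not.

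Per kilobase of annotated exon, SLC38A2 stood level with SLC7A1 in the groups that received PDGF-BB and above it in control. With both factors SLC38A2 stood at 30.4 CPM per kb ± 3.22, beside 30.6 ± 1.90 for SLC7A1; with PDGF-BB they stood at 30.1 ± 2.93 and 30.2 ± 3.10 CPM per kb, closer than their spread. In control SLC7A5 stood at 51.3 CPM per kb ± 6.70, SLC3A2 at 49.9 ± 5.43, SLC1A5 at 47.2 ± 5.90 and SLC38A2 at 42.5 ± 1.54, neighbours that differed by less than the larger of their SDs. In control SLC7A1 followed at 29.1 CPM per kb ± 3.30, then SLC38A1 at 6.15 ± 0.755 and SLC1A4 at 2.77 ± 0.426, each step larger than both SDs. These levels count all annotated exons of a gene, and isoforms in use were not measured.

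Other genes of amino acid handling were set beside the members as lists that were written with earlier results of these data known. With both factors over control, the median log2 fold change was 0.07 over the 7 tested members and -0.01 over all tested genes. Of 39 other amino acid carriers 12 passed the filter, and edgeR called none in any comparison, with at most 1 at an unadjusted p under 0.05. Over all tested genes the share called was at most 1.98%, and the share at an unadjusted p under 0.05 was 10.9% with both factors over control and over eNAMPT, 9.64% with PDGF-BB over control and 9.07% over eNAMPT, and lower in the other comparisons. SLC38A7, a glutamine carrier of lysosomes, had the smallest p among them and stood at 15.0 CPM ± 3.81 with both factors and 21.3 ± 6.09 in control (log2 fold change -0.52, adjusted p 0.261). SLC6A9, the glycine carrier GLYT1, stood at -0.44 (log2) with eNAMPT over control (unadjusted p 0.0821). None of 13 tested mitochondrial and lysosomal carriers was called by edgeR in any comparison, with at most 1 at an unadjusted p under 0.05. CTNS, the lysosomal cystine exporter, stood at 11.1 CPM ± 2.69 with eNAMPT and 7.21 ± 2.07 in control (unadjusted p 0.0289). SLC25A38, the mitochondrial glycine carrier, stood at 36.2 CPM ± 2.09 with PDGF-BB and 43.9 ± 4.04 in control (unadjusted p 0.0467).

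The amino acid response list held ATF4, GCN2, other stress kinases that act through ATF4, and linked stress genes. Of its 25 tested genes 2 rose with both factors over control and 0 fell, where 1.63% of all tested genes were called higher and 0.347% lower. The list's median log2 fold change was 0.15. GADD45A, a stress-induced growth arrest gene, averaged 283 CPM ± 53.4 with both factors, 234 ± 37.5 with PDGF-BB, 189 ± 9.09 with eNAMPT and 173 ± 21.9 in control. It rose with both factors over control by 0.71 (adjusted p 5.55e-06) and over eNAMPT by 0.58 (adjusted p 0.000241). With PDGF-BB over control it rose by 0.44 (adjusted p 0.0142), and the adjusted p of GADD45A was 0.0553 and 0.0818 without PDGF-BB replicates 3 and 4 and 0.0698 without control replicate 2. ATF4 itself averaged 339 CPM ± 51.3 with both factors, 326 ± 53.6 with PDGF-BB, 291 ± 31.2 with eNAMPT and 289 ± 22.1 in control, and was not called (0.23 with both factors over control, adjusted p 0.296).

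CEBPB, a transcription factor that pairs with ATF4, rose by 0.40 with both factors over control (adjusted p 0.0294, edgeR quasi-likelihood). The adjusted p of CEBPB was 0.161, 0.0501 and 0.0849 without replicates 1, 2 and 3 of the group with both factors, and 0.0516, 0.106 and 0.128 without control replicates 2, 4 and 5. With both factors over eNAMPT it rose by 0.41 (adjusted p 0.0293), and that adjusted p was 0.141 and 0.0809 without replicates 1 and 3 of the group with both factors and 0.0894 and 0.108 without eNAMPT replicates 4 and 5. With PDGF-BB over control CEBPB stood at a fold change of 0.36 (log2, adjusted p 0.0882).

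Of 27 tested genes of amino acid synthesis and use, edgeR called none with both factors or with PDGF-BB over control, where 5 and 3 had an unadjusted p under 0.05, beside 10.9% and 9.64% of all tested genes. MAT2A, which makes S-adenosylmethionine from methionine, rose by 0.47 with both factors over eNAMPT (adjusted p 0.0317, edgeR quasi-likelihood). The adjusted p of MAT2A was 0.154 and 0.125 without replicates 1 and 4 of the group with both factors, 0.0920, 0.0693, 0.0741 and 0.0667 without eNAMPT replicates 1, 2, 3 and 4, and 0.0562 in a fit of those groups alone. SAT1, which acetylates polyamines, averaged 167 CPM ± 16.0 with both factors and 131 ± 21.6 in control (log2 fold change 0.35, adjusted p 0.0515).

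Of 40 tested genes of amino acid sensing and mTORC1, MYC alone was called, higher, a share near the 1.98% of all tested genes called with both factors over control and the 1.21% with PDGF-BB over control. MYC, a growth-promoting transcription factor, averaged 41.4 CPM ± 6.53 with both factors, 37.4 ± 6.15 with PDGF-BB, 26.0 ± 1.51 with eNAMPT and 25.5 ± 3.44 in control. It rose with both factors over control by 0.70 (adjusted p 0.00128) and over eNAMPT by 0.67 (adjusted p 0.00235). With PDGF-BB over control it rose by 0.55 (adjusted p 0.0294); the adjusted p of MYC was 0.0521 and 0.173 without PDGF-BB replicates 2 and 4, 0.0973 and 0.0982 without control replicates 4 and 5, and 0.0544 in a fit of those groups alone. TSC1, a subunit of the complex that restrains mTORC1, stood at -0.41 on the log2 scale, both factors over control (adjusted p 0.118). As for SLC38A2, no call of GADD45A, CEBPB, MAT2A or MYC held with spike-in scaling. The log2 fold changes were then 0.60 for GADD45A, 0.25 for CEBPB and 0.54 for MYC with both factors over control, 0.48 for GADD45A and 0.58 for MYC with PDGF-BB over control, and 0.35 for MAT2A with both factors over eNAMPT.

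**Figure D4:**
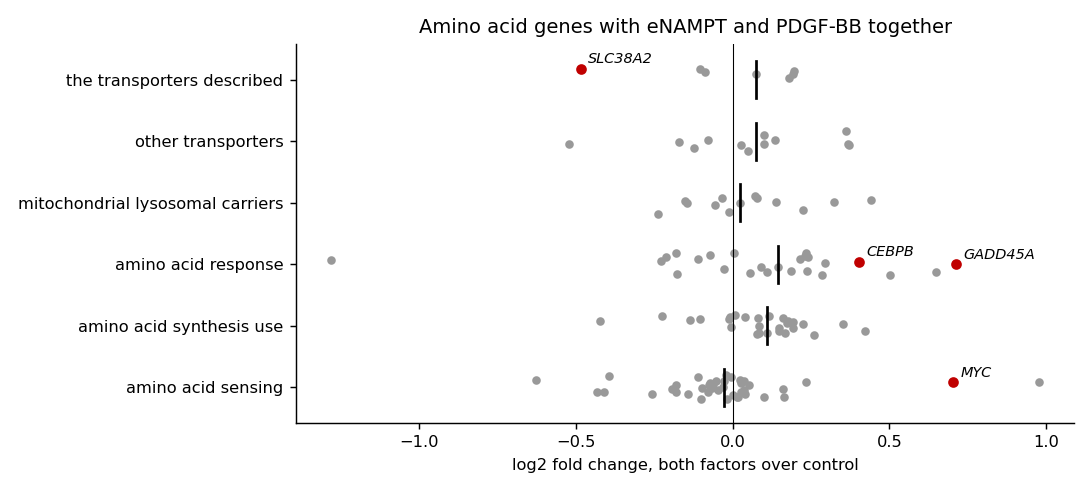
Log2 fold changes with both factors over control (horizontal axis) of every tested gene in 6 groups of amino acid genes, the described transporters at the top. Each point is a gene (vertical spread within a row is for legibility), red marks an adjusted p under 0.05 and black lines are medians; SLC38A2 is the red point to the left at -0.48, and GADD45A, CEBPB and MYC lie to the right at 0.71, 0.40 and 0.70.

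The genes whose pattern over the 20 libraries was most like that of SLC38A2 were PHIP (Pearson r 0.867), TXNIP (0.86), REV1 (0.819), JMY (0.81) and NNT-AS1 (0.809), among the 7867 genes that averaged 4 or more in log2 CPM. The libraries share their treatments, so these values describe likeness only. TXNIP encodes an arrestin that limits glucose uptake, REV1 a DNA polymerase that copies past lesions, and JMY a nucleator of actin filaments. PHIP averaged 142 CPM ± 16.4 with both factors, 135 ± 9.33 with PDGF-BB, 168 ± 9.50 with eNAMPT and 167 ± 7.30 in control. JMY averaged 16.8 CPM ± 4.61 with both factors, 13.6 ± 4.93 with PDGF-BB, 27.2 ± 2.85 with eNAMPT and 26.4 ± 3.41 in control. REV1 averaged 36.01 CPM ± 3.35 with both factors, 36.1 ± 1.63 with PDGF-BB, 47.4 ± 4.64 with eNAMPT and 47.1 ± 5.40 in control. Each of the 3 was lower on average in both groups that received PDGF-BB, which their choice by likeness to SLC38A2 made likely in advance.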

How the data were processed

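Per the submitters' processing notes, the tools were STAR 2.6.1a, featureCounts 1.6.4, FastQC 0.11.7 and DESeq2 1.18.1, and the build was GRCh38. The authors deposited raw counts per gene for 20 libraries, sums per group, and for each pairwise comparison a log2 fold change, its standard error (unit: score) and p-values. A second deposited count table, never lower than the first, served as an alternative; what separates them is not given in the sources used here, nor is strandedness. All 58676 gene IDs had the same start in GENCODE 29. Spike-in rows (92 ERCC and 7 SIRV) stayed out of library sizes and tests.

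In edgeR 4.0.16 (R 4.3.3), filterByExpr kept 12111 genes and 7 of the 8 members, and TMM set the library scale. Group means were then fitted in 1 quasi-likelihood model of the 20 libraries together (glmQLFit; two-sided glmQLFTest). P-values were adjusted by Benjamini-Hochberg over all tested genes within a comparison, and a gene was called at an adjusted p under 0.05. A log2 fold change is the first-named group over the second, its SE is its size over the square root of F, and intervals are 95%. CPM are TMM-scaled counts per 1e+06. Likeness to SLC38A2 was Pearson's r of log2 CPM (prior count 2). The members and gene lists were chosen with earlier results of these data known. Genes named from a list are those called, or the 2 with the smallest p where fewer than 2 were called, and ATF4, MYC, EGR1 and CXCL1 always. Alternatives were DESeq2 1.42.0, limma-voom (limma 3.58.1), RLE and ERCC scaling, other filters, the replicate number as a block, fitting the compared groups alone, the second table and leaving out each library. The model was tested on simulated counts. Depth of 2894878 to 4011066 gene counts limits genes of a few counts. Whether the counting used strand is not given in the sources used here, so reads of genes that overlap on opposite strands cannot be told apart; 1 result is not reported here.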

Additional observations from a re-analysis of the deposited data

Results flagged for a closer look

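Of 112 groups of 5 libraries examined, over the genes named and the member ratios, 5 had a highest or lowest library whose gap to the next, over the range of the group, passed 0.71. Chance marks about 1 in 20 such groups. Among the transporters this was SLC38A2 in control replicate 1, at 299 CPM, against 273 to 278 CPM in the other control libraries. Without that library, SLC38A2 stood at -0.46 on the log2 scale, both factors over control (adjusted p 0.000402, edgeR) and -0.47 with PDGF-BB over control.

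The others were not members. EGR1 was lowest in the same library, control replicate 1, at 56.9 CPM (67.0 to 70.7 in the others). MYC was highest in PDGF-BB replicate 4 at 48.1 CPM (33.4 to 36.8). CXCL1 was lowest in eNAMPT replicate 4 at 41.4 CPM (53.96 to 57.4). NNT-AS1 was highest in replicate 3 of the group with both factors at 35.1 CPM (17.6 to 22.7); it is an antisense gene, and the strand setting of the counting is not given in the sources used here.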

How the results depend on the processing

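The call of SLC38A2 was the same under DESeq2, limma-voom, RLE scaling, both other filters, the second count table, fits of only the groups compared and all 20 fits that left out a library, with PDGF-BB over control, both factors over control and both factors over eNAMPT. Spike-in scaling left 0 members called in those comparisons and 0 between PDGF-BB and eNAMPT, against 1 each; the adjusted p of SLC38A2 with both factors over eNAMPT was then 0.133. The cause was not tested. The PDGF-BB and eNAMPT libraries were used in choosing SLC38A2, so its calls in comparisons with either group are a description here too. Spike-in scaling called 38 genes in all with PDGF-BB over control against 147, 50 with both factors over control against 240, 30 with both factors over eNAMPT against 185, 29 between PDGF-BB and eNAMPT against 127, and 2 with both factors over PDGF-BB against 7. PDGF-BB against eNAMPT had 81 calls without eNAMPT replicate 4. For eNAMPT over control DESeq2 and the fit without a filter called 14 genes each against 9; for both factors over PDGF-BB they called 11 and 12, and the fit of only those groups 11, against 7. For the difference of effects the fit without a filter called 3.

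Same-numbered replicates were checked for pairing. Deviations from the group means correlated at 0.00138 to 0.176 (median 0.0901) over the 30 same-number pairs, all above 0 and 12 above 0.1. Pairs of different numbers correlated at -0.114 to 0.114 (median -0.0257). For 12 of 20 libraries, the mean correlation with libraries of other groups was highest for their own number. By these medians same-numbered libraries were more alike than others, but the labels do not say what a number marks. The cut of 0.1 used here is no test of pairing and cannot show that same-numbered libraries are unpaired. Not every pair passed it, so the main fits did not take the number as a pairing. What same-numbered libraries share therefore stays in the spread that those fits measure. With replicate number as a block, 2 members were called with both factors over control, SLC38A2 and SLC3A2 (log2 fold change 0.20, adjusted p 0.0263); no other member's call changed. The block raised the genes called to 377 with PDGF-BB, 510 with both factors and 21 with eNAMPT over control, to 511 with both factors over eNAMPT, 362 between PDGF-BB and eNAMPT and 15 with both factors over PDGF-BB, and to 7 for the difference of effects. The interaction uses all groups in every fit. Counts limit SLC7A2 and SLC1A4 most.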

Other observations

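Within groups, most of the transporters varied with replicate number more than the median gene did. Replicate number accounted for 78.5% of the within-group spread of SLC7A5, 75.1% for SLC1A5, 68.1% for SLC1A4, 65.6% for SLC3A2, 56.4% for SLC38A1, 34.2% for SLC38A2 and 23% for SLC7A1, beside a median of 32.9% over all tested genes. Some of the spread of any gene falls to replicate number without an effect of it, so a share alone does not show one. SLC7A5 averaged 259 and 267 CPM in the libraries numbered 1 and 2, 243 in those numbered 3, and 206 and 217 in those numbered 4 and 5. SLC1A5 averaged 161, 144, 192, 185 and 168 CPM for numbers 1 to 5. What the numbers mark is not stated in the labels.

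Between the deposited count tables, the first held 99.9% of the counts that the second gave SLC38A2 and 97.6% of those for SLC1A5, the lowest share among the 7 tested members.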
